A study of Mus musculus with 18 samples.

Results

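The Hox genes were examined here in RNA sequencing of mouse knee cartilage after rupture of the anterior cruciate ligament (ACL). Members were the protein-coding genes of the GENCODE mouse annotation with a symbol made of Hox, a cluster letter from a to d and a paralog number. This rule found 39 genes of the 49184 genes in the tables. All animals were wild-type male C57bl6 mice aged 12 weeks, and no group carried a mutation or transgene. Injured samples were right knees ruptured by a single load of 12 N and taken at day 1 or day 7 (3 libraries each), contralateral samples were the left knees of injured mice (3 libraries at each day), and naive samples came from mice that were never loaded, taken at day 7 (6 libraries). The contralateral knee belonged to an injured, anaesthetised animal that had received buprenorphine, so it is not an untreated knee. Each library was a pool of femoral condyle cartilage from more than 1 knee. The day 7 injured and contralateral groups came from 12 mice, the day 1 groups from 6 mice and the naive group from 6 mice. By these numbers the day 7 injured and contralateral pools held more mice than the other pools, so the spread between pools may differ between groups. The study puts the larger pools down to partial loss of cartilage. The effect of pool size and of cartilage loss on the Hox values was not tested. Injured and contralateral pools of a day came from the same animals, and left and right naive knees were pooled separately, so naive libraries can share mice, but the labels do not link single pools. All libraries were used as separate samples. This can make p-values too small where naive pools share mice, and too large between injured and contralateral pools of the same animals. The p-values therefore measure the spread between pools. The 18 libraries held 16074762 to 41794005 estimated counts.

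Hox proteins are homeodomain transcription factors that give cells their position along the body axis and along the limb. Their genes lie in clusters in which the order of the genes follows the order in which the embryo uses them, with low paralog numbers at the anterior end. In the limb, the paralogs with high numbers set the identity of the upper segment, the lower segment and the digits in turn, and adult connective tissue cells keep part of this positional pattern. In the GRCm38 genome the Hoxa cluster spanned chr6:52155590-52260880 on the reverse strand, the Hoxb cluster chr11:96194316-96368256, the Hoxc cluster chr15:102921103-103036852 and the Hoxd cluster chr2:74668310-74765142, the last 3 on the forward strand.

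One library stood apart before any comparison. In library 13, a day 7 contralateral pool, the summed level of 11 synovial fibroblast markers was 56932 CPM (counts scaled to the effective library size), against 17534 and 23947 in the other two pools of its group. Its summed erythroid markers reached 64632 CPM, against 29229 and 31321, and its summed chondrocyte markers 13589 CPM, against 4904 and 5905. Counts of called Hox genes that used this group, and values of some single genes, are given below with and without that library. Other results that used this group are given with all libraries. The tissue was labelled cartilage and chondrocyte, and all 12 chondrocyte markers were detected well enough to be tested. Erythroid, muscle and bone marrow markers were detected too: in the naive libraries the summed erythroid markers were 34497 ± 3943 CPM (SD, n = 6) and the summed muscle markers 6643 ± 2574 CPM, beside 6050 ± 1304 CPM for the chondrocyte markers.

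In naive cartilage the Hox genes were expressed at low levels and unevenly by paralog number. Levels between genes are given as TPM, transcript abundances corrected for transcript length and scaled to the library total. The 39 genes together reached 18.01 ± 1.66 TPM (SD, n = 6). Hoxc10, a gene of the hindlimb and lumbar region, had the highest mean at 2.56 ± 0.710 TPM, with libraries from 1.4995 to 3.27. It was followed by Hoxd8 at 2.18 ± 0.358 TPM and Hoxa10, which patterns the upper segment of the limb, at 1.99 ± 0.176 TPM. Hoxc6 stood at 1.40 ± 0.318 TPM and Hoxa9 at 1.28 ± 0.301 TPM, and these 5 were the members with a mean of at least 1 TPM. Over protein-coding transcripts only, Hoxa10 was at 1.16 TPM, Hoxa9 at 0.776 TPM and Hoxc6 at 0.586 TPM, the last below Hoxa7, Hoxb4, Hoxc9 and Hoxd9, while Hoxc10 and Hoxd8 had the same values as before. The next in order were Hoxa7 (0.935 TPM), Hoxb4 (0.729 TPM), Hoxc9 (0.647 TPM), Hoxd9 (0.646 TPM) and Hoxc8 (0.638 TPM). The ranges of neighbours in this order overlapped throughout, so that the exact rank of a gene was not resolved by the 6 libraries. The median gene with a naive mean above 0 stood at 0.478 TPM.

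**Figure D1:**
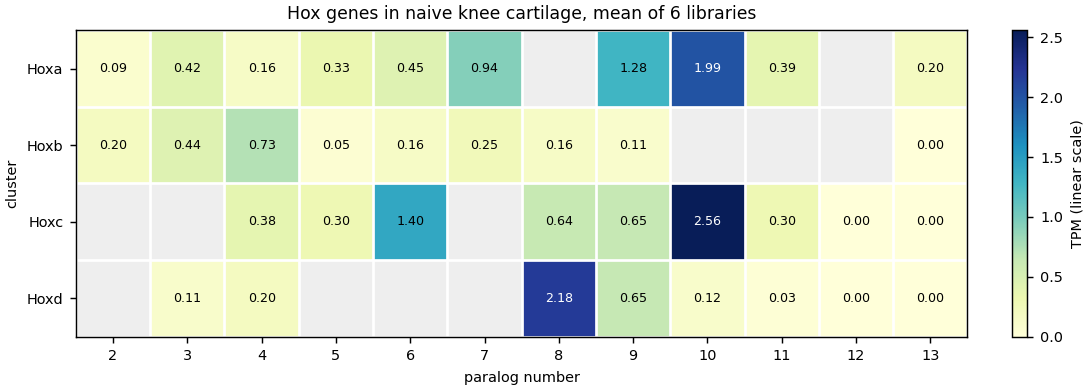
Mean TPM of Hox genes in the 6 naive libraries on a linear colour scale, with clusters as rows, paralog numbers from 2 to 13 as columns and grey cells where no such gene exists. Levels peaked at Hoxc10 (2.56), Hoxd8 (2.18) and Hoxa10 (1.99) and were near 0 at paralogs 12 and 13 apart from Hoxa13 (0.198).

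Paralogs 8 to 11 held 61.4% of the summed naive Hox TPM with 13 of the 39 genes, and paralogs 1 to 7 held 37.5% with 20 genes. Paralogs 12 and 13, the digit and tail end of the clusters, held 1.13%, nearly all of it from Hoxa13 (0.198 ± 0.103 TPM). By cluster, Hoxa gave 35.2% of the total, Hoxc 34.6%, Hoxd 18.3% and Hoxb 11.9%. The highest member was Hoxa10 in Hoxa, Hoxb4 in Hoxb, Hoxc10 in Hoxc and Hoxd8 in Hoxd. Hoxb4 is best known from blood stem cells, and Hoxd8 lies next to the limb paralogs of its cluster.

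Of the 39 members, 9 were at or near the detection limit in the knee, most of them at the distal end of their clusters. Hoxb13, known from prostate and tail, had 0 counts in every library, which in the deepest library of 41794005 counts allowed a level of at most 0.0718 CPM before normalization (3 counts; counting error only). Hoxc12, Hoxc13, Hoxd1, Hoxd12 and Hoxd13 had at most 2 counts in any library. Hoxd11, a gene of the lower limb segment, never exceeded 10 counts, Hoxb5 16 and Hoxd3 7. These 9 members did not pass the filter on low counts, and no test of them is given. Hoxb1, with at most 12 counts, lay just inside it. The other 30 passed the filter, which asks for enough reads in at least as many libraries as the smallest group holds.

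At day 7 after rupture a block of Hox genes was higher in the injured knee. Of the 30 members tested against naive, 11 were called higher, 0 lower and 19 not called, where a call needs a false discovery rate (FDR) of at most 0.05 over all 21129 genes tested and at least a 1.5-fold change (edgeR quasi-likelihood test with Benjamini-Hochberg adjustment). The share of Hox genes called higher was 36.7%, beside 10.4% of all genes called higher and 6.11% called lower. The median log2 fold change was 0.53 over the Hox genes and -0.04 over all genes. The called members were Hoxa9, Hoxa10 and Hoxa11, Hoxb2 and Hoxb7, Hoxc6, Hoxc9 and Hoxc10, and Hoxd8, Hoxd9 and Hoxd10. In such bulk samples, a different number of cells of a type and a different amount of RNA per cell cannot be told apart.

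Hoxa10 (ENSMUSG00000000938, chr6:52231197-52240854, reverse strand) rose with the lowest FDR of the Hox genes. The values that follow are CPM normalized by the trimmed mean of M values (TMM), which allow 1 gene to be compared between libraries. The naive libraries ran from 5.74 over a median of 7.01 to 7.60 CPM, and the day 7 injured libraries were at 14.2, 14.5 and 15.8 CPM. All 3 injured libraries lay well above all 6 naive ones, on raw counts of 229 to 341 against 108 to 217. The log2 fold change was 1.16 with a standard error (SE) of 0.13 (edgeR FDR 7.64e-06).

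Hoxd8 and Hoxc10, the most abundant members per length, also rose. For Hoxd8 (ENSMUSG00000027102, chr2:74704615-74707933, forward strand) the naive libraries spanned 5.77 to 10.4 CPM with a median of 8.93, and the day 7 injured libraries were at 15.2, 17.4 and 20.6 CPM. The groups were apart, with a log2 fold change of 1.09 (SE 0.17, edgeR FDR 0.000215). For Hoxc10 (ENSMUSG00000022484, chr15:102966796-102971893, forward strand) the naive libraries spanned 5.10 to 11.8 CPM with a median of 9.29, and the injured libraries were at 13.8, 14.8 and 21.6 CPM. Here too no injured library fell within the naive range, and the log2 fold change was 0.94 (SE 0.25, edgeR FDR 0.0114). The highest library, number 18, carried part of the Hoxc10 difference: without it the log2 fold change was 0.72 and the FDR 0.0924.

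Promoters of called members are shown because these genes were called higher in the same comparison. The RefSeq promoter table (GRCm38.p6, 250 bases before to 50 after the gene start) held 24 entries for 22 of the 39 Hox genes, with 7 entries for 6 of the 11 called against naive. The 3 entries printed were picked because they hold a match to a searched motif; those of Hoxd9, Hoxa9, Hoxa11 and the outer Hoxa10 start hold none. Only the 250 bases before the start are printed, 5′ to 3′ on the strand of the gene. Capitals mark matches on either strand to CCAAT, to TATAAA (the TATA box) or to AGGTCA (the core of retinoid receptor sites).
Hoxd8, chr2:74704365-74704614, forward strand: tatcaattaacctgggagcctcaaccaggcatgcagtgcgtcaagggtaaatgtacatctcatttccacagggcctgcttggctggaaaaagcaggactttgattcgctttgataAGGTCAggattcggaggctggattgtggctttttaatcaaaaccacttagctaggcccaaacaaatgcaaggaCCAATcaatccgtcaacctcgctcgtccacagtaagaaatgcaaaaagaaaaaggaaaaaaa
Hoxd10, chr2:74691641-74691890, forward strand: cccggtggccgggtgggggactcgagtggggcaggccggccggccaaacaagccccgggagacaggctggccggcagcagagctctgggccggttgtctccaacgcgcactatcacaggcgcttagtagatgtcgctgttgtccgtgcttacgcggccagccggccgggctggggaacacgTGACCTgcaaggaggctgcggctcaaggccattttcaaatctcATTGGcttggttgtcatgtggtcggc
Hoxa10, inner start, chr6:52234940-52235189, reverse strand: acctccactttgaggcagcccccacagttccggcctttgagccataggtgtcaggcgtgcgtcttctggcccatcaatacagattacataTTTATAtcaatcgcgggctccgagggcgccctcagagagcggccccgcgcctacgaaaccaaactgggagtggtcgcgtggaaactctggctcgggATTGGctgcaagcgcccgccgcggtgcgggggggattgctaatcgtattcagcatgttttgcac

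Over the full windows, CCAAT stood in 15 of the 24 Hox promoters (62.5%) and in 37.4% of all 32851 promoters in the table. AGGTCA stood in 7 Hox promoters (29.2%), against 16.3% of all, and TATAAA in 4 (16.7%), against 13.6%. Among the 7 promoters of called members, CCAAT was found in 3, AGGTCA in 2 and TATAAA in 1. The Hox and Pbx composite TGATNNAT was found in 4 Hox promoters and the posterior Hox sequence TTTATNG in 2, none of them promoters of called members, against 8.85% and 10.9% of all promoters. TATAAA and TTTATNG can overlap. A match says only that these letters are present in the window.

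The remaining called members of the Hoxa cluster were the neighbours of Hoxa10. Hoxa9 acts with the Hox10 genes in the upper limb segment. It was at 3.58 to 5.04 CPM in naive cartilage (median 4.19) and at 5.77, 7.54 and 8.05 CPM in the day 7 injured libraries, without overlap, for a log2 fold change of 0.75 (SE 0.16, edgeR FDR 0.00249). Hoxa11, which patterns the lower limb segment, was at 0.938 to 2.45 CPM in naive cartilage (median 1.55) and at 3.19, 3.22 and 3.48 CPM after injury. The 3 injured values were close together and above every naive library, with a log2 fold change of 1.06 (SE 0.25, edgeR FDR 0.0045). Hoxa13, the digit gene at the end of the cluster, was at 0.693 ± 0.194 CPM after injury and 0.602 ± 0.220 CPM in naive cartilage (log2 fold change 0.22, SE 0.35). Thus all 3 tested genes of paralogs 8 to 11 in this cluster were called and none of the 7 with lower numbers. Of those, Hoxa7 came nearest: its FDR was 0.0407 but its log2 fold change of 0.52 stayed under the 1.5-fold limit. Without library 8, the highest naive library for this gene, it was called (log2 fold change 0.64, FDR 0.00632).

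In the Hoxc cluster Hoxc6, active at the level of the forelimb and thorax, was at 2.04 to 2.85 CPM in naive cartilage (median 2.38). The day 7 injured libraries were at 3.72, 4.31 and 5.78 CPM, all above that range, and the log2 fold change was 0.95 (SE 0.15, edgeR FDR 0.000255). Hoxc9, a trunk gene, was at 1.61 to 3.25 CPM in naive cartilage (median 2.15) and at 3.61, 3.63 and 3.89 CPM after injury. These groups were also apart, and the log2 fold change was 0.75 (SE 0.20, edgeR FDR 0.00966). Hoxc8, which lies between them and patterns the lower thorax, was at 2.50, 3.28 and 3.29 CPM after injury against 1.497 to 2.91 CPM in naive cartilage and was not called (log2 fold change 0.46, edgeR FDR 0.142). Hoxc11 was at 1.01 ± 0.340 CPM after injury and 1.09 ± 0.309 CPM in naive cartilage.

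In the Hoxd cluster all 3 testable genes of paralogs 8 to 11 were called. Hoxd9 was at 4.04, 4.53 and 5.45 CPM after injury and at 1.57 to 4.24 CPM in naive cartilage (median 2.54). One naive library lay within the injured range, and the log2 fold change was 0.91 (SE 0.27, edgeR FDR 0.0218). Without library 17 or 18 it was no longer called (FDR 0.0951 and 0.0595), nor in the fit on all 18 libraries (FDR 0.0666). Hoxd10 was at 0.570, 0.681 and 1.203 CPM after injury and at 0.239 to 0.596 CPM in naive cartilage, again with overlap (log2 fold change 1.09, SE 0.39, edgeR FDR 0.0461). Its call rested on 5 to 26 counts per library and was lost when library 7, 9, 10, 11, 16 or 18 was left out (without library 18 the log2 fold change was 0.70 and the FDR 0.297) and with the DESeq2 Wald test (FDR 0.0518).

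Called members of the Hoxb cluster lay at low paralog numbers. Hoxb2, a hindbrain gene, was at 1.36, 1.76 and 1.96 CPM after injury and at 0.380 to 1.03 CPM in naive cartilage (median 0.586). Its log2 fold change, 1.40, was the highest among the 30 members (SE 0.31, edgeR FDR 0.00325), without overlap between the groups. Hoxb7 was at 0.694, 0.999 and 1.27 CPM after injury and at 0.173 to 0.836 CPM in naive cartilage (log2 fold change 1.13, SE 0.38, edgeR FDR 0.0357), and the groups overlapped. The Hoxb7 call was lost when library 7, 9, 10, 12, 16 or 17 was left out, with an edgeR FDR of up to 0.149, and also with no filter on low counts (FDR 0.0542) and with average transcript length as offset (FDR 0.0976). Hoxb4, the most abundant gene of its cluster, was at 1.73, 3.48 and 3.98 CPM after injury against 2.73 to 4.11 CPM in naive cartilage (log2 fold change -0.15, SE 0.24). Hoxb9 was at 0.773 ± 0.0995 CPM after injury and 0.463 ± 0.178 CPM in naive cartilage (log2 fold change 0.74, edgeR FDR 0.143).

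**Figure D2:**
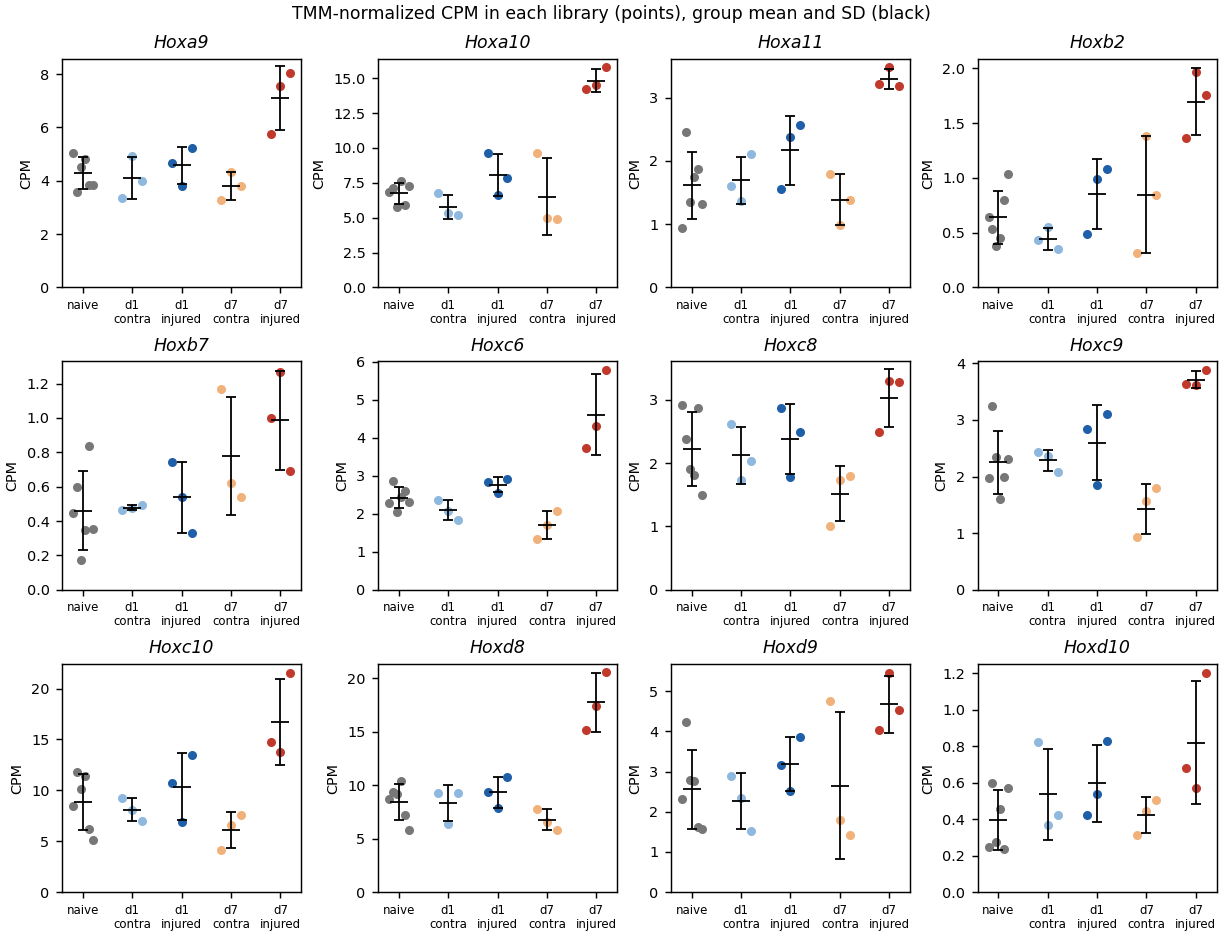
TMM-normalized CPM of the 12 Hox genes called in at least 1 comparison, one point per library, with the group mean and SD in black, for naive, day 1 and day 7 contralateral (contra) and day 1 and day 7 injured knees. The day 7 injured libraries stand above all naive libraries for 8 of them, among them Hoxa10 (14.2 to 15.8 CPM) and Hoxd8 (15.2 to 20.6 CPM).

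By paralog number, 8 of the 12 tested genes of paralogs 8 to 11 were called higher, with a median log2 fold change of 0.83, against 3 of the 17 tested genes of paralogs 1 to 7, with a median of 0.33. Every tested gene of paralog 10 was called (3 of 3), as were 3 of 4 of paralog 9, and 0 of 4 of paralog 4. The difference between these sets was not tested. It went together with depth: of the 10 tested members with a mean of at least 50 counts per library 7 were called, of the 7 with 25 to 50 counts 1, and of the 13 with fewer counts 3. In 8 members every day 7 injured library was above every naive one, beside 17.4% of all genes tested, and in 0 members every injured library was below, beside 10.8% of all genes.

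**Figure D3:**
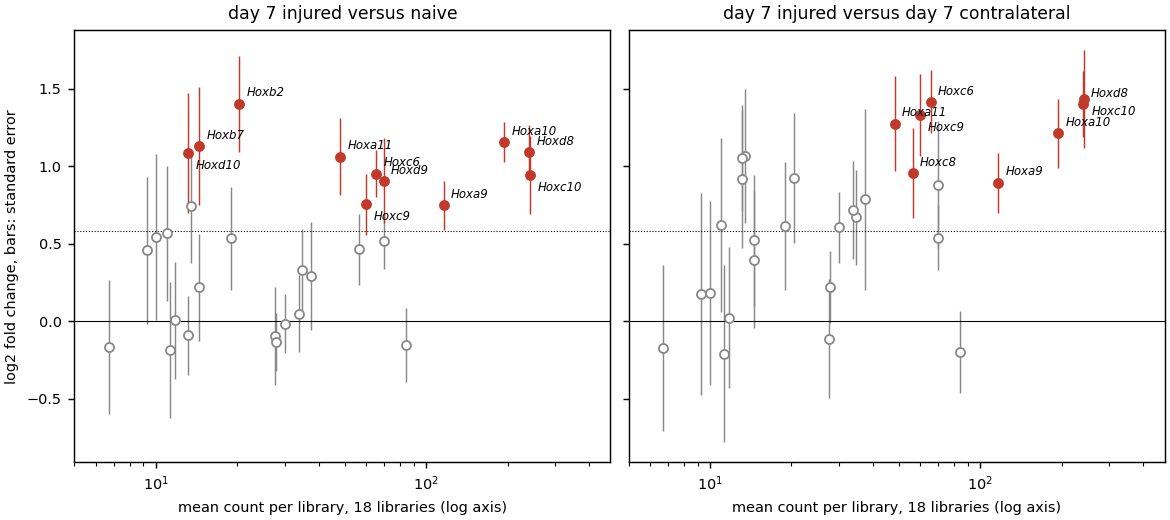
Log2 fold change (bars: standard error) of the 30 tested Hox genes against their mean count per library on a log axis, for day 7 injured against naive (left) and against day 7 contralateral (right). Red points were called, and the dotted line marks a 1.5-fold increase. Of the 10 members with at least 50 counts, 7 were called in each comparison.

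Against the contralateral knee of day 7, 8 of the 30 members were called higher, 0 lower and 22 not called (26.7%, beside 9.33% of all 21262 genes tested called higher and 3.23% called lower). This comparison and that with naive share the 3 day 7 injured libraries. The 8 members were Hoxa9, Hoxa10, Hoxa11, Hoxc6, Hoxc8, Hoxc9, Hoxc10 and Hoxd8, of which 7 were also called against naive. The median log2 fold change of the Hox genes was 0.69 and that of all genes -0.05. For 15 members every injured library was above every contralateral one (18.6% of all genes tested), and for 0 members below (14.3%).

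Genes of the Hoxc cluster, which patterns trunk and hindlimb levels, made up 4 of the 8. Contralateral values of Hoxc6 were 1.32, 1.69 and 2.06 CPM, all below the injured values, and the log2 fold change of 1.42 (SE 0.20) had the lowest FDR among the Hox genes (edgeR FDR 8.42e-05), while without library 13 that of Hoxa10 was the lowest (FDR 1.06e-05). Hoxc10 was at 4.13, 6.60 and 7.60 CPM in contralateral cartilage (log2 fold change 1.43, SE 0.32, edgeR FDR 0.00388). Hoxc9 was at 0.935, 1.56 and 1.79 CPM there (log2 fold change 1.33, SE 0.26, edgeR FDR 0.00155). Hoxc8, at 1.01, 1.74 and 1.79 CPM, differed by a log2 fold change of 0.96 (SE 0.29, edgeR FDR 0.0271). All 4 genes had their lowest contralateral value in library 13.

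Hoxd8 was at 5.85, 6.60 and 7.79 CPM in the contralateral libraries, clear of the injured ones (log2 fold change 1.40, SE 0.21, edgeR FDR 0.000134). Hoxa9 was at 3.27, 3.82 and 4.32 CPM (log2 fold change 0.89, SE 0.19, edgeR FDR 0.00323) and Hoxa11 at 0.981, 1.39 and 1.79 CPM (log2 fold change 1.28, SE 0.31, edgeR FDR 0.0072). Hoxa10 was uneven in this group, at 4.93 and 4.95 CPM in 2 libraries and 9.66 CPM in library 13, and its log2 fold change was 1.21 (SE 0.22, edgeR FDR 0.000774). Hoxd9 showed the same unevenness in CPM, with 1.42 and 1.78 CPM beside 4.75 CPM in library 13, and was not called (log2 fold change 0.88, edgeR FDR 0.152). Per length, Hoxa10 in library 13 was at 0.932 TPM, below the 1.54 and 1.97 TPM of the other two pools, so the position of that library depended on the scale. Without library 13 the count of called members was again 8, beside 2029 of all 21808 genes called higher. Hoxa10 was then at a log2 fold change of 1.61 and Hoxd8 at 1.53. Every injured library was above both remaining contralateral ones for 19 of the 30 members and below for 0. The share of all genes was not computed here, and separation is easier from fewer libraries, so nothing is read from this count. In the fit without library 13 Hoxc8 was no longer called (log2 fold change 0.79, FDR 0.0806) and Hoxd9 was (log2 fold change 1.57, FDR 0.00789). Hoxc8 was also lost without injured library 17 (FDR 0.0768) or 18 (FDR 0.0985), and Hoxb2 was called without contralateral library 14 (log2 fold change 1.40, FDR 0.0460).

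**Figure D4:**
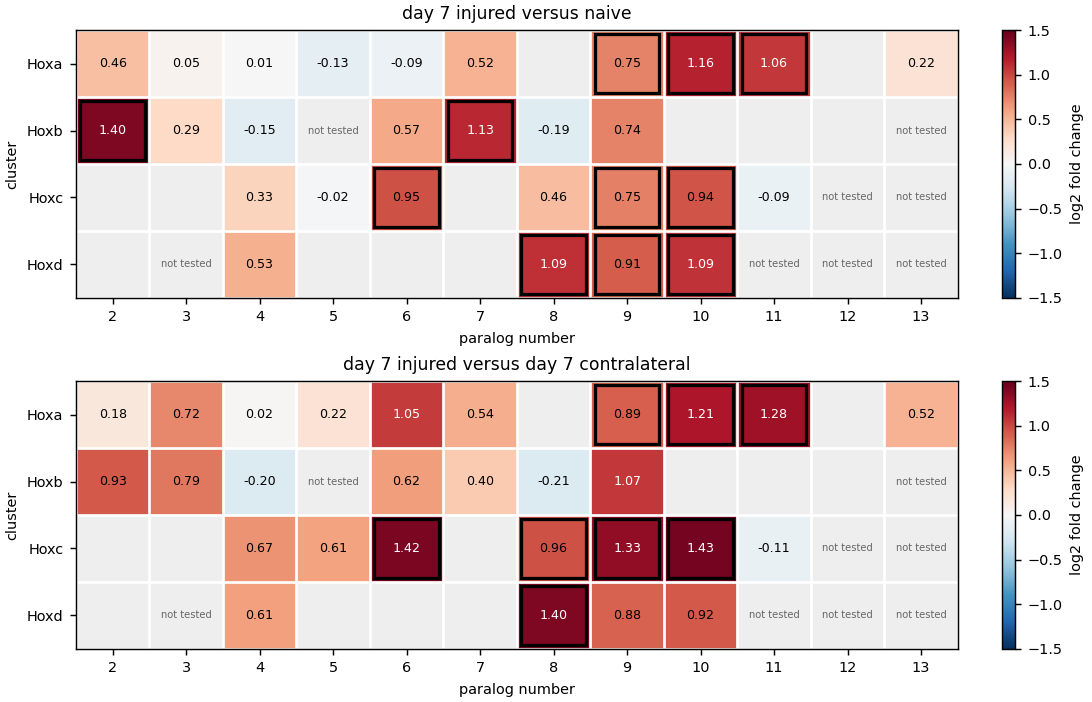
Log2 fold change of tested Hox genes at day 7 in the injured knee against naive (upper grid) and against the contralateral knee (lower grid), with clusters as rows and paralog numbers from 2 to 13 as columns. Black frames mark called members and grey cells untested or non-existent genes. Of the 11 frames in the upper grid 8 are at paralogs 8 to 11, and of the 8 in the lower grid 7 are.

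One day after rupture no Hox gene was called. In injured against naive knees 0 of 30 members passed, beside 0% of all genes tested by edgeR. At an unadjusted edgeR p under 0.05 there were 1 Hox gene and 959 genes in all. DESeq2 and limma-voom also called 0 Hox genes, where over all genes DESeq2 called 0 higher and 15 lower and limma-voom 0. Most members nonetheless lay slightly above naive: 27 of 30 had a log2 fold change above 0, beside 49.99% of all genes, with a median of 0.22. Against the day 1 contralateral knee 28 of 30 were above 0, beside 49.7% of all genes, with a median of 0.21. Leaving out 1 library moved both medians. Without library 6 that against naive was 0.14, with 24 of 30 above 0. Without library 4 that against contralateral was 0.34, with 28 of 31 above 0. It fell to 0.19 without library 6, with 24 of 30 above 0. Without library 5 it was 0.21, with 23 of 31 above 0. The comparisons share the 3 day 1 injured libraries. Sums of some other gene lists were also apart between the day 1 knees, while those of chondrocyte, erythroid, muscle and most other lists overlapped. Synovial fibroblast markers were at 13292 to 23075 CPM in the injured and 8719 to 10655 CPM in the contralateral libraries. Osteoblast and osteocyte markers and limb identity genes were higher too, and proliferation and B cell genes lower. No gene of these lists was called at day 1, and their part in the Hox values was not tested. Hoxa10 was at 6.61, 7.87 and 9.63 CPM in the day 1 injured libraries and at 5.19, 5.30 and 6.77 CPM in the contralateral ones, which overlap (log2 fold change 0.48, SE 0.15, edgeR FDR 0.755). Hoxc6 was at 2.54, 2.84 and 2.90 CPM against 1.85, 2.06 and 2.36 CPM, without overlap (log2 fold change 0.40, SE 0.18, edgeR FDR 0.755). Every injured library was above every contralateral one for Hoxc6 and Hoxa5 only, 2 of 30 members, beside 5.09% of all genes, and below for 0 members, beside 6.07%. Against naive this held above for Hoxa5 only, beside 1.07% of all genes, and below for 0, beside 1.01%. The members are counted in the same 3 pools and are not replicates of one another.

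By edgeR no gene was called between contralateral and naive knees at either day. At day 1 no Hox gene was called (0% of all genes), 0 Hox genes and 554 genes in all had an unadjusted edgeR p under 0.05, and 13 of 30 members lay above naive. For 0 members every contralateral library was above every naive one (0.629% of all genes) or below (0.753%). At day 7 again none was called (0% of all genes), with 5 Hox genes and 3220 genes in all at an unadjusted edgeR p under 0.05. DESeq2 and limma-voom called 0 Hox genes in either comparison. Over all genes DESeq2 called 1 higher and 1 lower at day 1, and 18 higher and 13 lower at day 7. Limma-voom called 0 genes at both days. In the day 7 comparison 21 of 30 members lay below naive. For Hoxa3, Hoxa6 and Hoxc5 every day 7 contralateral library was below every naive one (2.41% of all genes), and for 0 members above (1.92%). Without library 13 there was again no call, and 21 of 31 tested members lay below naive. An unadjusted edgeR p under 0.05 was then reached by 4 Hox genes and 1201 genes in all. The same 3 genes and Hoxa10 were then below every naive library. The share of all genes below was not computed without that library, so nothing is read from this count. The median log2 fold change of the Hox genes was -0.13 with that library and -0.31 without it. Hoxa6 was the furthest, at 0.156, 0.267 and 0.338 CPM against 0.517 to 0.741 CPM in naive cartilage (log2 fold change -1.16, SE 0.30, edgeR FDR 0.248, and -0.99 without library 13).

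From day 1 to day 7 in the injured knee, 5 of 30 members rose by the same test, 0 fell and 25 were not called (16.7% of the Hox genes, beside 9.04% of all genes called higher and 6.38% called lower). They were Hoxa9, Hoxa10, Hoxb2, Hoxc6 and Hoxd8. Hoxa10 had the lowest FDR, with a log2 fold change of 0.90 (SE 0.15, edgeR FDR 0.000665), and Hoxd8 differed by 0.95 (SE 0.20, FDR 0.00393) and Hoxc6 by 0.76 (SE 0.18, FDR 0.00691). Hoxa9 rose by 0.66 (SE 0.19, FDR 0.0191) and Hoxb2 by 1.01 (SE 0.36, FDR 0.0499), the latter just inside the limit. The count was 3 without library 2 or 17 and 2 without library 18, and without library 3 it was 3, with 1 member, Hoxa3, called lower. In 9 members every day 7 library was above every day 1 library (22.8% of all genes), and in Hoxa5 alone every day 7 library was below (17.5%).

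With all 18 libraries in the fit, Hoxd8 was the 1 member whose injury effect, injured minus contralateral, differed between the days in the edgeR interaction test. At day 7 it exceeded that at day 1 by 1.24 on the log2 scale (SE 0.29, FDR 0.0222), where 3.72% of all genes passed in that direction and 0.287% in the other (4.01% in either). Its day 1 injured libraries were at 7.82, 9.37 and 10.8 CPM and its day 1 contralateral libraries at 6.40, 9.24 and 9.30 CPM, which overlap. Hoxc6 followed with a difference of 1.01 (SE 0.28, FDR 0.0527) and passed without library 15 (FDR 0.0397) or 16 (FDR 0.0288). Hoxa10 differed by 0.73 (SE 0.31, FDR 0.238), and without library 13 by 1.13 (SE 0.23, FDR 0.00791), so that it passed together with Hoxd8 (1.38, FDR 0.0144). The Hoxd8 call was kept in 5 of 12 fits that left out 1 injured or contralateral library and lost without library 1, 2, 3, 5, 14, 15 or 18 (log2 1.11 to 1.38, FDR 0.0144 to 0.0841 over the 12 fits).

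The noncoding genes between the Hox genes were scarce. The clusters held 27 genes of other symbols, of which 11 had at most 3 counts in every library and 7 were tested. Of these 7, 2 were called higher against naive, Hoxa11os and Hotairm1, beside 10.4% of all genes. Hoxa11os, the antisense RNA of Hoxa11, was at 0.881 ± 0.239 CPM after injury and 0.405 ± 0.164 CPM in naive cartilage (log2 fold change 1.096, SE 0.36, edgeR FDR 0.0339). Against the contralateral knee it differed by a log2 fold change of 2.50 (FDR 0.00189), and of 2.53 without library 13 (FDR 0.0052). Hotairm1 was at 0.749 ± 0.213 CPM against 0.370 ± 0.0532 CPM (log2 fold change 1.03, edgeR FDR 0.0399), and against the contralateral knee it was not called (log2 fold change 0.72, FDR 0.262). Hotair, read from the opposite strand inside the Hoxc cluster, never exceeded 5 counts. Hoxaas3 was the most abundant noncoding gene, at 0.690 ± 0.337 CPM in naive cartilage, and was not called.

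Some Hox values cannot be kept apart from those of overlapping genes. Hoxa11 shared 33.9% of its transcript 31-base words with Hoxa11os, Hoxb2 26.5% with Hoxb3os, and Hoxa7 19.4% with Hoxaas3, and Hoxc10 shared 7.34% with Hoxc5. Hoxb3 (52.7%), Hoxd3 (61.2%) and Hoxd4 (49.1%) shared more with other genes. For Hoxa10, Hoxc6, Hoxd8, Hoxd9 and Hoxa9 the share was 1.33% or less. The strand setting of the quantification is not given in the sources used here, so levels of Hoxa11 and Hoxb2 are uncertain to that extent. Noncoding isoforms also carried part of the counts: 61.1% of the Hoxa10 counts, 77.6% of those of Hoxa9, 71.5% of those of Hoxc6 and 79.1% of those of Hoxa11 fell on protein-coding transcripts, and all those of Hoxd8, Hoxc9 and Hoxc10. With protein-coding transcripts only, the Hoxa10 log2 fold change was 1.07 against naive (FDR 0.000236) and 1.12 against contralateral (FDR 0.0521), the latter no longer called. Hoxa11 was called in neither, with log2 fold changes of 1.14 (FDR 0.234) and 1.11 (FDR 0.375) that were near those over all transcripts.

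Of 14 tested genes just outside the clusters, such as Cbx5 and Hnrnpa1 beside Hoxc or Skap2 beside Hoxa, 0 were called in either day 7 comparison, beside 16.6% of all genes called in either direction against naive and 12.6% against contralateral. With so few genes nothing is read from this count. Their median log2 fold change was -0.03 against naive and that of all genes -0.04.

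Pbx and Meis proteins are homeodomain cofactors that bind DNA with Hox proteins. Of 9 tested, Meis3 was called higher against naive, at 5.73 ± 0.361 CPM against 3.40 ± 0.427 CPM (log2 fold change 0.77, edgeR FDR 0.000312), a count near the 10.4% of all genes called higher. Meis2, also 1 of 9, was called higher against contralateral (log2 fold change 1.15, FDR 0.0185, and 0.88 with FDR 0.0480 without library 13), beside 9.33% of all genes. Polycomb proteins keep Hox genes silent, and of 21 tested genes 1 was called against naive, beside 16.6% of all genes. It was Pcgf2, higher at 7.01 ± 1.24 CPM against 4.12 ± 0.799 CPM (log2 fold change 0.80, FDR 0.00146). Against contralateral Pcgf2 was called higher (log2 fold change 1.09, FDR 0.00055) and Cbx7 lower (-0.68, FDR 0.0233), beside 9.33% and 3.23% of all genes. Without library 13 Cbx7 was no longer called (-0.54, FDR 0.0933), Pcgf2 was (1.13), and Cbx6 was called higher. Rbbp4, the most abundant of that list, was at 194 ± 13.5 CPM against 213 ± 11.1 CPM. Of 13 Trithorax genes, whose products keep Hox genes active, 0 were called in either day 7 comparison. Beside this stood 16.6% of all genes called in either direction against naive and 12.6% against contralateral. With so few genes nothing is read from that count.

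Retinoic acid and Cdx proteins set Hox expression in the embryo. Cdx1, Cdx2 and Cdx4 had at most 3 counts in every library. Of 16 tested genes of this list, 5 were called higher and 0 lower against naive, beside 10.4% and 6.11% of all genes. The binding protein Crabp2 was at 15.5, 18.6 and 24.3 CPM in the day 7 injured libraries and at 0.346 to 1.05 CPM in naive cartilage, far apart (log2 fold change 4.79, SE 0.35, edgeR FDR 1.27e-07). The receptor Rarg (log2 fold change 0.89), the reductase Dhrs3 (0.66) and the degrading enzyme Cyp26b1 (1.41) were also called against naive. Against contralateral 2 of the 16 were called, Crabp2 and Cyp26b1, beside 9.33% of all genes called higher. Rarg (log2 fold change 0.51, FDR 0.0864) and Dhrs3 (0.46, FDR 0.0198, under the 1.5-fold limit) were not, and without library 13 Rarg was called (0.91, FDR 0.000216). Aldh1a1, the most abundant gene of the list, was at 45.1 ± 1.44 CPM after injury and 66.5 ± 7.48 CPM in naive cartilage, under the 1.5-fold limit.

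Of 15 tested limb identity genes outside the clusters, 9 were called higher at day 7, 0 lower and 6 not called against naive, beside 10.4% of all genes called higher. Against contralateral the counts were also 9, 0 and 6, beside 9.33% of all genes, and 9 of 16 were called higher without library 13. This list was chosen with earlier results of these data known. Pitx1, which marks the hindlimb, was at 9.58, 11.2 and 14.99 CPM after injury and at 2.99 to 4.97 CPM in naive cartilage (log2 fold change 1.58, SE 0.18, edgeR FDR 9.25e-06). Tbx4, the hindlimb T-box gene, was at 4.04, 4.44 and 4.86 CPM against 1.39 to 2.63 CPM (log2 fold change 1.17, SE 0.18, FDR 0.000133). Tbx5, its forelimb counterpart, was at 3.41 ± 0.577 CPM against 2.79 ± 0.546 CPM and was not called (log2 fold change 0.32, FDR 0.238). Prrx1, a marker of limb mesenchyme and the most abundant of the list, was at 195 ± 41.5 CPM against 63.1 ± 10.3 CPM (log2 fold change 1.64, FDR 5.59e-07). Gli3 (1.33) and Prrx2 (2.70) were also called.

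**Figure D5:**
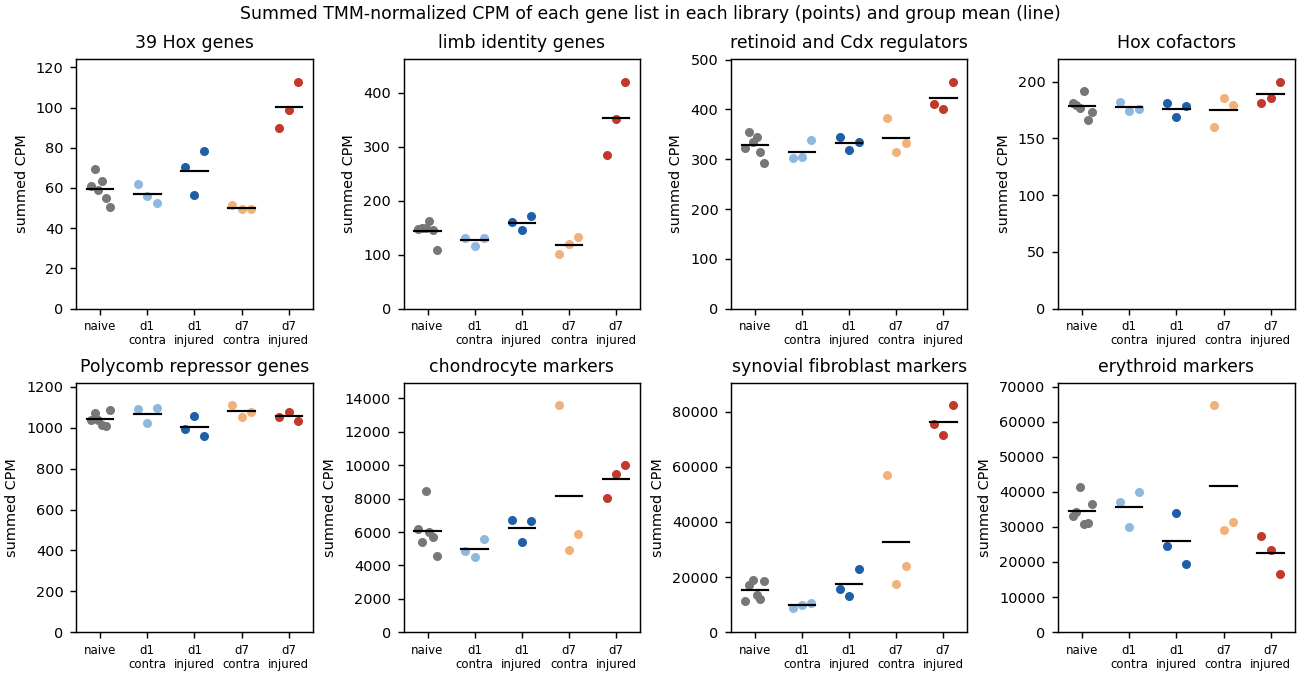
Summed TMM-normalized CPM of the 39 Hox genes and of 7 other gene lists, one point per library and a line at each group mean, on axes that start at 0. The Hox sum was 89.6 to 113 CPM in the day 7 injured libraries and 50.5 to 69.5 CPM in naive ones; library 13 is the high day 7 contralateral point of the chondrocyte, synovial fibroblast and erythroid panels.

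Summed over the 39 genes, Hox transcripts were at 89.6, 98.7 and 113 CPM in the day 7 injured libraries, 50.5 to 69.5 CPM in the naive ones and 49.4 to 51.4 CPM in the day 7 contralateral ones. By cluster, the Hoxd sum was at 24.9 ± 3.60 CPM after injury against 12.5 ± 2.75 CPM in naive cartilage, and the Hoxb sum at 9.68 ± 1.35 against 7.84 ± 1.33 CPM. Hoxa reached 33.7 ± 1.98 CPM against 19.9 ± 1.41 CPM and Hoxc 32.1 ± 5.34 CPM against 19.5 ± 3.45 CPM.

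Markers of several cell types moved in the same libraries as the Hox genes. Beside the counts that follow, 10.4% of all genes were called higher and 6.11% lower against naive at day 7. Of 11 synovial fibroblast markers 6 were called higher, among them Lum (log2 fold change 2.86), Col3a1 (3.65), Thy1 (1.91) and Pdgfra (1.32). Their summed level was 76422 ± 5412 CPM after injury and 15253 ± 3405 CPM in naive cartilage, most of it from Col1a1. Of 12 chondrocyte markers 4 were called higher, among them Acan (1.57) and Sox9 (1.36), and Chad was called lower (-0.73). Col2a1, the most abundant of them, was not called. Of 8 erythroid markers 4 were called lower, with a summed level of 22523 ± 5464 CPM against 34497 ± 3943 CPM, and of 6 adipocyte markers 3 were lower. Of 7 endothelial markers 4 were called higher and of 8 neutrophil and marrow markers 2 lower, while 0 of 10 muscle, 8 macrophage, 6 B cell and 8 proliferation genes passed in either direction. Of 9 osteoblast and osteocyte markers 1 was called higher and 2 lower. In library 13, where the summed fibroblast and erythroid markers were high, the Hoxa sum was 20.03 CPM against 16.5 and 16.6 CPM in the other two pools and the Hoxd sum 14.2 against 8.68 and 9.49 CPM, while the Hoxc sum was 10.8 against 14.7 and 15.9 CPM and the Hoxb sum 6.39 against 8.14 and 9.05 CPM. The part of these cell types in the Hox differences was not tested.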

How the data were processed

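Cartilage RNA was sequenced from 18 libraries with a strand-preserving kit. The study left out a library with a low mapping rate without naming it, and all 18 were used here. The authors trimmed reads with Trimmomatic and quantified them with Kallisto on mouse transcripts, and deposited estimated counts, TPM and transcript lengths per transcript. Here transcripts were mapped by identifier to GENCODE M21 (GRCm38), and the deposited estimated counts and TPM were summed per gene. Counts were rounded and tested with edgeR 4.0.16 (TMM, filterByExpr, glmQLFit, glmQLFTest) after the scripts were tested on simulated data. Comparisons without the day 7 contralateral group used 15 libraries (21129 genes tested), the others 18 (21262 genes). Printed CPM used TMM factors of all 18 libraries. A call needed FDR at most 0.05 and at least 1.5-fold, or FDR alone for the interaction. The smallest library, of 16074762 counts, makes 3 counts equal to 0.187 CPM. Alternatives used DESeq2 1.42.0, limma 3.58.1 voom, other filters, scaling, transcript sets and left-out libraries. Named genes were members called in any comparison, the most abundant per cluster and of all, those of paralogs 9 to 13, and for other lists the called genes with the lowest FDR, the most abundant, and Pitx1, Tbx4 and Tbx5. Members at or under 3 counts in every library were listed. Every other gene in the text (Hoxa3, Hoxa5, Hoxa6, Hoxb1, Hoxb3, Hoxb5, Hoxc5, Hoxd3, Hoxd4, Hotair, Hoxb3os, Meis2, Cbx6, Cbx7, Chad and neighbours of the clusters) was named after its values were seen. Members and lists were chosen with earlier results of these data known. Values of some genes are not reported here.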

Additional observations from a re-analysis of the deposited data

Results flagged for a closer look

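Hoxd8 is listed because its injury effect differed between the days: injured minus contralateral was larger at day 7 than at day 1 by 1.24 on the log2 scale (edgeR interaction test, FDR 0.0222). Hoxa7 is listed because 1 naive library, at 3.78 CPM, lay far above the other 5, with a gap of 0.74 of the whole range of the group. The other naive libraries were at 2.27 to 2.66 CPM. The naive group was examined in this way for 17 Hox genes, and chance alone marks about 1 in 20 such groups.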

How the results depend on the processing

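For the members called at day 7 against naive or contralateral, the direction held under every alternative tried. For the other comparisons counts were recomputed, and values of single genes only in part. These were Hoxa10, Hoxc6, Hoxc9 and Hoxd8 for the interaction, and fits without library 13. Of the 11 members called at day 7 against naive, Hoxa10, Hoxb2, Hoxc6, Hoxc9 and Hoxd8 were called under every alternative. Of the 8 called against contralateral, Hoxc6, Hoxc9, Hoxc10 and Hoxd8 were. With FDR at most 0.01 the counts fell to 7 (against naive), 3 (day 7 against day 1 injured) and 0 (interaction). With average transcript length as an offset they were 3 (day 7 against day 1 injured) and 0 (interaction), and with the DESeq2 Wald test the interaction count was 3. The offset also ended the calls of Hoxb7 and Hoxd10 against naive and of Hoxa9 against naive (log2 fold change 0.53, FDR 0.137) and contralateral (0.68, FDR 0.137). Leaving out 1 library at a time gave 8 to 12 called members against naive, 7 to 9 against contralateral, 2 to 4 for day 7 against day 1 injured and 0 to 2 for the interaction; without library 3, Hoxa3 was called lower at day 7 than at day 1 in the injured knee. With TPM over protein-coding transcripts only, 3 members instead of 5 reached 1 TPM in naive cartilage. Uncalled genes near 0 changed sign when 1 library was left out: against naive, Hoxb4 ran from -0.40 (without library 18) to 0.14 (without library 16) and Hoxc11 from -0.37 (without library 17) to 0.095 (without library 18), with 0.04 without library 10. Against contralateral, Hoxb4 ran from -0.45 (without library 18) to 0.094 (without library 16) and Hoxc11 from -0.38 (without library 17) to 0.22 (without library 13), with 0.07 without library 18. The causes were not tested. The day 1 and contralateral comparisons with naive called 0 members under every alternative. No paired analysis was possible because the library numbers run from 1 to 18 and the labels do not say which pools share mice. The study's own model accounted for libraries from the same mouse pool, a link not used here. Of the 30 members tested, 13 had a mean under 25 counts, and the effect of depth on their calls was not tested.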
